A study of Mus musculus with 4 samples.

Results

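The proteasome is the large protease that degrades proteins tagged with ubiquitin, and its genes were followed here in sorted mouse hematopoietic stem cells (HSCs) with and without *Id2*. They were chosen by name, as every listed gene whose symbol begins with Psma, Psmb, Psmc, Psmd, Psme, Psmf or Psmg followed by a digit. Symbols that contain -ps were to be left out, but 0 such symbols were found, and pseudogenes were not filtered in any other way. Of 19354 listed genes, 49 met this rule. They comprised 15 genes of the catalytic core (8 α and 7 constitutive β subunits), 17 genes of the regulatory particle (6 ATPases and 11 other subunits), and 3 immunoproteasome genes. The others were 6 genes of activators and an inhibitor, 7 genes of assembly chaperones, and *Psmc3ip*, a cofactor of meiotic recombination that shares the name but is no subunit. *Psmb11*, the catalytic subunit found in the thymus, had no row among the values used.

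The 20S core is a barrel of α and β subunits in which some of the β subunits carry the proteolytic sites, and the 19S regulatory particle binds ubiquitin chains, unfolds the substrate with a ring of ATPases and feeds it into the barrel. Interferons induce *Psmb8*, *Psmb9* and *Psmb10*, whose products replace the constitutive catalytic subunits β5, β1 and β2 and favor peptides suited to MHC class I. HSCs make protein slowly and depend on the clearance of misfolded proteins, and the VHL ubiquitin ligase, which the study examined together with ID2, marks HIF-1α for this protease.

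HSCs (LSK FLT3- CD48- CD150+) were sorted from *Mx1-Cre* *Id2*+/+ and *Mx1-Cre* *Id2*fl/fl mice, 14 and 15 animals, aged 8 to 16 weeks and backcrossed to C57BL/6. All had received pIpC 2 weeks earlier, which induces interferon and, through the interferon-responsive *Mx1* promoter, the Cre recombinase that deletes the floxed gene in HSCs and in other cells of the animal. Cells were pooled over 2 experiments, and RNA of each genotype was sequenced as 2 libraries, called replicates 1 and 2. The labels do not tie a library to an experiment or to animals, and p-values therefore measure only the spread between these libraries. Both genotypes carried *Mx1-Cre* and were given pIpC, so the comparison does not measure what the interferon inducer did to the immunoproteasome genes.

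The measurements are the deposited log2 counts-per-million (CPM) values, which were normalized so that the 4 libraries share nearly the same distribution. Depth, estimated from the reads that low values stand for, was 14200000 and 15700000 reads in *Id2*+/+ and 17800000 and 18800000 in *Id2*Δ/Δ. The deleted gene, *Id2*, was read 93 and 98 times in *Id2*+/+ and 0 times in both *Id2*Δ/Δ libraries, so it was at least 37.3-fold lower, with 3 reads per library as the limit that a count of 0 allows. This limit covers counting error only. All 8 HSC markers were above 1 CPM on average, and their summed level was 4372 to 4457 CPM in *Id2*+/+ and 3033 to 3586 CPM in *Id2*Δ/Δ.

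All 49 proteasome genes were at 1 CPM or more in each of the 4 libraries and entered the test. Limma with Benjamini-Hochberg adjustment over 15895 genes called 0 of the 49 between genotypes, and it called 0% of all tested genes. The deleted gene, *Id2*, had the lowest log2 fold change of all tested genes, -7.31, and was not called either. The absence of calls therefore says little about smaller differences. The smallest adjusted p-value of a proteasome gene was 0.910 (limma, Benjamini-Hochberg). At an unadjusted p under 0.05, 1 proteasome gene was higher, *Psmd10*, and 0 were lower, against 1.72% of all tested genes higher and 2.95% lower. With 2 libraries a genotype, the smallest two-sided p that exact permutation allows is 0.333.

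Although no single gene passed, the group means leaned one way. The mean was higher in *Id2*Δ/Δ for 41 of the 49 genes (83.7%), against 51.7% of all tested genes, and the median log2 fold change was 0.14 against 0.01 for all tested genes. The libraries did not overlap, with *Id2*Δ/Δ above *Id2*+/+, for 17 of the 49 (34.7%, against 19% of all tested genes) and with *Id2*Δ/Δ below for 2 (4.08%, against 15.8%). Log2 fold changes ran from -0.15 to 0.47 and standard errors from 0.11 to 0.32. The difference exceeded 1 standard error for 24 of the 49 (49%, against 38% of all tested genes) and 2 standard errors for 2, *Psma6* and *Psmd10* (4.08%, against 8.35%). In sorted, pooled cells, fewer cells of a kind and less RNA per cell cannot be told apart.

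**Figure D1:**
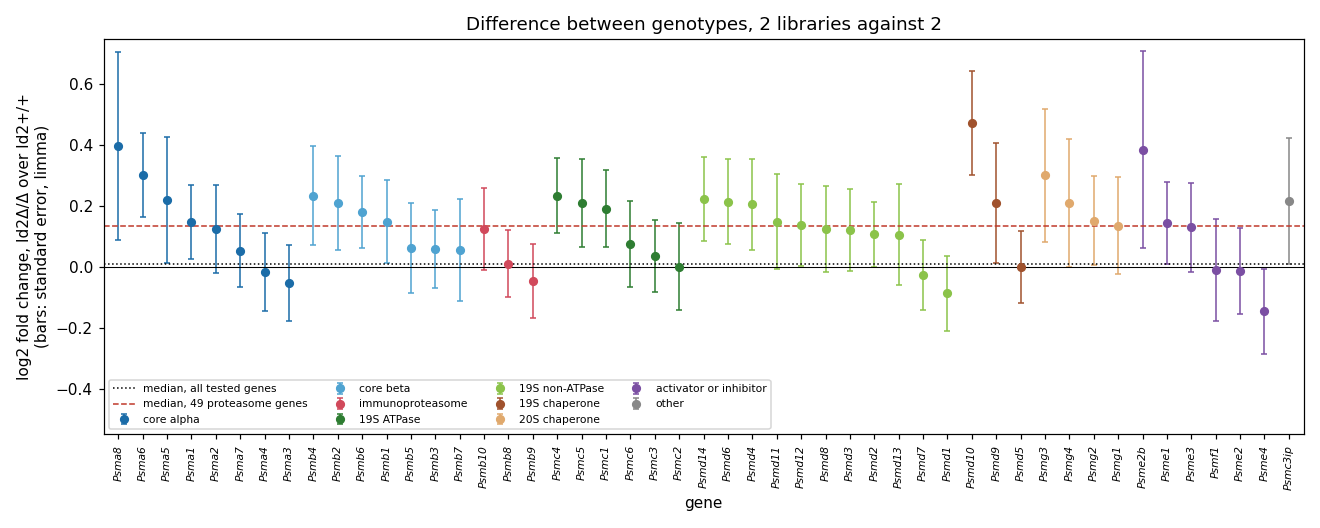
Log2 fold change of each proteasome gene, Id2Δ/Δ over Id2+/+, from 2 libraries a genotype, ordered by group and size, with the standard error from limma as bars. The dashed line is the median of the 49 genes, 0.14, the dotted line that of all tested genes, 0.01, and the difference exceeds its standard error for 24 of the 49 genes.

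This lean came mostly from 1 library. *Id2*Δ/Δ replicate 1 was the highest of the 4 libraries for 37 of the 49 genes (75.5%), against 33.2% of all tested genes. It exceeded both *Id2*+/+ libraries for 39 (79.6%, against 40.1% of all tested genes), whereas *Id2*Δ/Δ replicate 2 did so for 20 (40.8%, against 37.5%). Relative to each gene's mean over the 4 libraries, the median deviation of the 49 genes was 0.15 log2 in *Id2*Δ/Δ replicate 1, while it was -0.02 in *Id2*Δ/Δ replicate 2 and -0.07 and -0.03 in *Id2*+/+. Within *Id2*Δ/Δ, replicate 1 was above replicate 2 for 42 genes (85.7%, against 50.8% of all tested genes), and the median difference over the 49 was 0.18 log2.

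**Figure D2:**
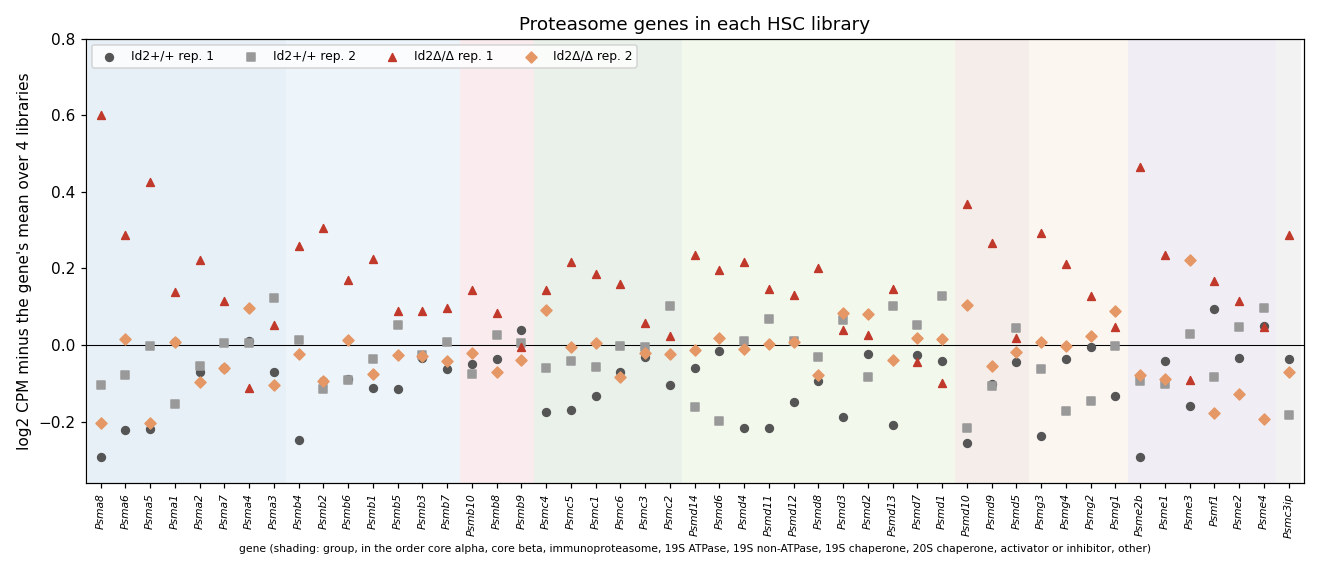
Log2 CPM of each proteasome gene in each of the 4 HSC libraries, minus that gene's mean over the 4, with genes grouped by role and groups shaded. Id2Δ/Δ replicate 1 (triangles) is the topmost point for 37 of 49 genes, and Id2Δ/Δ replicate 2 (diamonds) mixes with the Id2+/+ libraries.

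Without *Id2*Δ/Δ replicate 1, the mean was higher for 29 of the 49 genes (59.2%, against 53.3% of all tested genes) and the median log2 fold change was 0.04, against 0.02. Without *Id2*Δ/Δ replicate 2, the mean was higher for 43 (87.8%, against 52.2% of all tested genes) and the median was 0.21. *Id2*+/+ replicate 1 was the lowest library for 25 of the genes (51.0%, against 23.1% of all tested genes). Without it the median was 0.09, with 36 genes higher (73.5%, against 51.5%). Without *Id2*+/+ replicate 2, the median was 0.14 and 44 genes were higher (89.8%, against 50.1%). A fit with a library left out assumes that the lone library varies like the others. In each of these fits, limma called 0 proteasome genes. The log2 fold change of *Psmd10* ranged from 0.34 to 0.60 with each library left out in turn. With all 4 libraries but without the intensity trend, 0 proteasome genes, *Psmd10* included, had an unadjusted limma p under 0.05.

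The core genes followed this pattern. Of the 15 core genes, 13 had a higher mean in *Id2*Δ/Δ, with a median log2 fold change of 0.15, and 13 were highest in *Id2*Δ/Δ replicate 1. The libraries of the genotypes were fully separated for 3 (20%, near the 19% of all tested genes), namely *Psma1*, *Psma6* and *Psmb6*. Without *Id2*Δ/Δ replicate 1, 7 of the 15 were higher and the core median was -0.000151.

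Among the α subunits, which form the outer rings and gate the barrel, 6 of 8 had a higher mean in *Id2*Δ/Δ (median log2 fold change 0.14). *Psma6* was at 7.14 and 7.28 log2 CPM in *Id2*+/+ and at 7.65 and 7.38 in *Id2*Δ/Δ. The groups did not overlap, and the log2 fold change of 0.30 had a standard error of 0.14 and an unadjusted limma p of 0.0624. It was 0.17 without *Id2*Δ/Δ replicate 1. *Psma8*, the α subunit of the testis proteasome, had 170 and 211 reads in *Id2*+/+ and 395 and 232 reads in *Id2*Δ/Δ. Only *Id2*Δ/Δ replicate 1 stood apart there. Its log2 fold change of 0.40 had a standard error of 0.31 and was -0.01 without that library.

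*Psma5* had the same form, with 7.13 and 7.35 log2 CPM in *Id2*+/+ and 7.77 and 7.14 in *Id2*Δ/Δ. Its *Id2*Δ/Δ libraries were 0.63 apart, more than the log2 fold change of 0.22. *Psma3* was at 7.77 and 7.96 log2 CPM in *Id2*+/+ and at 7.90 and 7.74 in *Id2*Δ/Δ. Its log2 fold change was -0.05, smaller than the distance between the replicates of either genotype. The other α subunits, *Psma1*, *Psma2*, *Psma4* and *Psma7*, had log2 fold changes of 0.15, 0.13, -0.02 and 0.05, and *Psma4* alone among the 15 core genes was highest in *Id2*Δ/Δ replicate 2.

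All 7 constitutive β subunits had a higher mean in *Id2*Δ/Δ and all 7 were highest in *Id2*Δ/Δ replicate 1, with log2 fold changes between 0.06 and 0.23. *Psmb6* encodes the caspase-like catalytic subunit β1. It was at 7.29 log2 CPM in both *Id2*+/+ libraries and at 7.55 and 7.40 in *Id2*Δ/Δ, without overlap, a log2 fold change of 0.18 (standard error 0.12) that was 0.10 without *Id2*Δ/Δ replicate 1. *Psmb5*, the chymotrypsin-like β5 subunit that proteasome inhibitors such as bortezomib bind, was at 5.94 and 6.11 in *Id2*+/+ and at 6.14 and 6.03 in *Id2*Δ/Δ. These groups overlapped, and the log2 fold change of 0.06 had a standard error of 0.15.

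*Psmb7*, the trypsin-like β2 subunit, was at 5.12 and 5.19 log2 CPM in *Id2*+/+ and at 5.28 and 5.14 in *Id2*Δ/Δ. Its groups overlapped too (log2 fold change 0.06, standard error 0.17). *Psmb1*, a β subunit without a catalytic site, was at 7.46 and 7.53 in *Id2*+/+ and at 7.79 and 7.49 in *Id2*Δ/Δ. Its log2 fold change of 0.15 was -0.000729 without *Id2*Δ/Δ replicate 1. The other β subunits, *Psmb2*, *Psmb3* and *Psmb4*, had log2 fold changes of 0.21, 0.06 and 0.23, and for each of them the libraries overlapped.

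The 3 immunoproteasome genes differed between genotypes by less than their standard errors, with log2 fold changes of 0.01 for *Psmb8*, -0.04 for *Psmb9* and 0.13 for *Psmb10*. *Psmb8* (ENSMUSG00000024338.14) lies on chromosome 17 from 34197721 to 34201454 on the plus strand of GRCm38, and *Psmb9* (ENSMUSG00000096727.2) from 34181987 to 34187764 on the minus strand of the same chromosome. *Psmb10* (ENSMUSG00000031897.9) lies on chromosome 8 from 105935735 to 105938444 on the minus strand.

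*Psmb8* was at 8.31 and 8.37 log2 CPM in *Id2*+/+ and at 8.43 and 8.27 in *Id2*Δ/Δ, so the *Id2*+/+ values lay between those of *Id2*Δ/Δ. *Psmb9* was at 6.86 and 6.83 in *Id2*+/+ and at 6.82 and 6.78 in *Id2*Δ/Δ. Both *Id2*Δ/Δ values were below both *Id2*+/+ values, by less than the standard error of 0.12 on average. *Psmb10* was at 6.34 and 6.32 in *Id2*+/+ and at 6.54 and 6.38 in *Id2*Δ/Δ, both higher, with a standard error of 0.14 and a log2 fold change of 0.04 without *Id2*Δ/Δ replicate 1. The unadjusted limma p-values of *Psmb8*, *Psmb9* and *Psmb10* were 0.921, 0.722 and 0.386. *Psmb8* overlaps *Gm20496* on the other strand, and *Psmb9* shares 212 bases with *Tap1*, also on the other strand, so their values are uncertain by the reads that may be shared, since the strand setting is not known.

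Each immunoproteasome subunit was also set against the constitutive subunit whose place it takes, within each library and per kilobase of the longest coding transcript. *Psmb8* was above *Psmb5*, with ratios of 2.85 and 2.65 in *Id2*+/+ and 2.69 and 2.61 in *Id2*Δ/Δ. *Psmb10* was above *Psmb7*, with ratios of 2.06 and 1.93 in *Id2*+/+ and 2.12 and 2.08 in *Id2*Δ/Δ. *Psmb9* was below *Psmb6* throughout, at ratios of 0.437 and 0.428 in *Id2*+/+ and 0.354 and 0.386 in *Id2*Δ/Δ.

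The *Psmb9* to *Psmb6* ratio was lower in both *Id2*Δ/Δ libraries than in both *Id2*+/+ libraries, with means of -1.44 and -1.21 log2 and a difference of -0.23. For *Psmb10* to *Psmb7* the *Id2*Δ/Δ ratios lay just above the *Id2*+/+ ratios, a difference of 0.07 log2, and for *Psmb8* to *Psmb5* the groups overlapped, with a difference of -0.05 log2. With each library left out in turn, these differences ranged from -0.288 to -0.165 for *Psmb9* to *Psmb6*, from 0.0235 to 0.117 for *Psmb10* to *Psmb7* and from -0.105 to 0.0028 for *Psmb8* to *Psmb5*. The last was 0.00562 after correction for transcript length. The lowest value for *Psmb10* to *Psmb7* was without *Id2*+/+ replicate 2, and the highest for *Psmb8* to *Psmb5* without *Id2*+/+ replicate 1. With 2 libraries a genotype none of the 3 differences could reach a smaller exact permutation p than 0.333. Ratios between genes depend on the transcript taken as each gene's length. The differences between genotypes do not, except after the correction for transcript length.

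**Figure D3:**
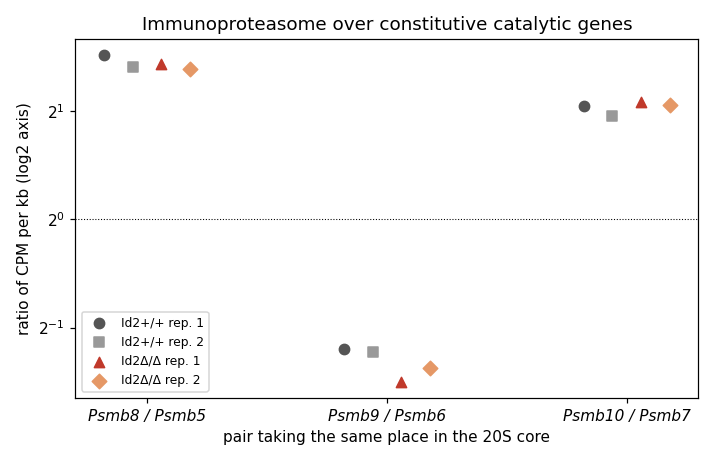
Ratio of each immunoproteasome gene to the constitutive gene whose place it takes in the 20S core, in CPM per kilobase on a log2 axis, 1 point per library. Psmb8/Psmb5 and Psmb10/Psmb7 lie near 2 or above in all 4 libraries, and Psmb9/Psmb6 lies between 0.354 and 0.437, lower in both Id2Δ/Δ libraries.

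Of the 17 genes of the regulatory particle, 15 had a higher mean in *Id2*Δ/Δ (median log2 fold change 0.12), and the libraries did not overlap for 6 (35.3%, against 19% of all tested genes). Without *Id2*Δ/Δ replicate 1, 12 of the 17 were higher and the median was 0.08, and without *Id2*+/+ replicate 1 the median was 0.06. The difference between the regulatory particle and the core was not tested.

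All 6 ATPases of the base, the ring that unfolds substrates, had a higher mean in *Id2*Δ/Δ (median 0.13), and *Psmc1*, *Psmc4* and *Psmc5* had libraries that did not overlap. *Psmc4* was at 6.76 and 6.88 log2 CPM in *Id2*+/+ and at 7.08 and 7.03 in *Id2*Δ/Δ. Its *Id2*Δ/Δ replicates were only 0.05 apart, and the log2 fold change of 0.24, with a standard error of 0.12 and an unadjusted limma p of 0.0953, was 0.21 without *Id2*Δ/Δ replicate 1. *Psmc3* was at 7.05 and 7.08 in *Id2*+/+ and at 7.14 and 7.06 in *Id2*Δ/Δ, a log2 fold change of 0.04. For *Psmc2*, at 6.20 and 6.40 and then at 6.32 and 6.28, it was 0.00. *Psmc1*, *Psmc5* and *Psmc6* had log2 fold changes of 0.19, 0.21 and 0.08.

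Among the 11 other regulatory subunits, 9 had a higher mean in *Id2*Δ/Δ (median 0.12). *Psmd2*, a scaffold of the base, was at 7.98 and 7.91 log2 CPM in *Id2*+/+ and at 8.03 and 8.08 in *Id2*Δ/Δ, without overlap. It was 1 of 5 proteasome genes that were highest in *Id2*Δ/Δ replicate 2, and its log2 fold change of 0.11 (standard error 0.11) was 0.13 without *Id2*Δ/Δ replicate 1. *Psmd14*, the deubiquitinase that removes the chain from the substrate, differed by 0.22 log2 and by 0.10 without that library, and its libraries did not overlap, nor did those of *Psmd6* in the lid.

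*Psmd1*, the other large scaffold of the base, and *Psmd7*, the inactive partner of the deubiquitinase, had lower means in *Id2*Δ/Δ. *Psmd1* was at 7.41 and 7.57 log2 CPM in *Id2*+/+ and at 7.35 and 7.46 in *Id2*Δ/Δ (log2 fold change -0.09, standard error 0.12). *Psmd7* was at 7.25 and 7.33 and then at 7.23 and 7.29 (log2 fold change -0.03, standard error 0.12). The *Id2*+/+ libraries of *Psmd13*, at 5.85 and 6.16, were farther apart than any genotype difference in the particle. *Psmd3*, *Psmd4*, the ubiquitin receptor, *Psmd8*, *Psmd11* and *Psmd12* had log2 fold changes between 0.12 and 0.21, each with libraries that overlapped.

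The assembly chaperones, which build the particles and are not part of the finished protease, had a median log2 fold change of 0.21, and all 7 had a higher mean in *Id2*Δ/Δ. After correction for transcript length their median was 0.11, against 0.13 for the regulatory particle. For 6 of the 7 (85.7%, against 19% of all tested genes) the libraries did not overlap, with *Id2*Δ/Δ above. Without *Id2*Δ/Δ replicate 1, 6 of the 7 were still higher and the median was 0.10. The median level of the chaperone genes was 32.1 CPM per kilobase, against 109 for the core and 60.6 for the regulatory particle. The levels of single genes overlapped, with the core gene *Psmb7* at 31.4 and the chaperone *Psmg2* at 46.9.

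*Psmd10* (gankyrin, ENSMUSG00000031429.14) is a chaperone of the 19S base that also binds the RB protein, and it lies on chromosome X from 140948429 to 140956728 on the minus strand. It was at 5.11 and 5.15 log2 CPM in *Id2*+/+ and at 5.73 and 5.47 in *Id2*Δ/Δ. Both *Id2*Δ/Δ libraries were well above the narrow *Id2*+/+ range. The log2 fold change of 0.47 was the largest of the 49 genes, with a standard error of 0.17 and limma p-values of 0.0266 unadjusted and 0.910 after Benjamini-Hochberg adjustment. It was 0.34 without *Id2*Δ/Δ replicate 1 and 0.44 after a correction for transcript length.

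The other 19S chaperones were *Psmd9*, at 4.68 log2 CPM in both *Id2*+/+ libraries and at 5.05 and 4.73 in *Id2*Δ/Δ, and *Psmd5*, at 7.10 and 7.18 and then at 7.16 and 7.12. The log2 fold change of *Psmd9*, 0.21, was 0.05 without *Id2*Δ/Δ replicate 1, and that of *Psmd5* was 0.00. The 4 chaperones of the 20S core, *Psmg1* to *Psmg4*, pair up to guide the α ring, and all 4 had libraries that did not overlap, with *Id2*Δ/Δ above, as had 19% of all tested genes.

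*Psmg3* had 238 and 295 reads in *Id2*+/+ and 428 and 376 reads in *Id2*Δ/Δ, or 4.07 and 4.25 against 4.60 and 4.32 log2 CPM. Its log2 fold change was 0.30 (standard error 0.22), and 0.16 without *Id2*Δ/Δ replicate 1. *Psmg4*, with 271 reads in both *Id2*+/+ libraries and 403 and 370 in *Id2*Δ/Δ, differed by 0.21 log2 (standard error 0.21). *Psmg2* was at 5.92 and 5.78 in *Id2*+/+ and at 6.06 and 5.95 in *Id2*Δ/Δ, a log2 fold change of 0.15, and *Psmg1* had one of 0.14. Without *Id2*Δ/Δ replicate 1 the median of these 4 genes was 0.13.

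The activators bind the ends of the barrel in place of the 19S particle or beside it. The genes of the activators and the inhibitor were split, with 3 of 6 higher and a median log2 fold change of 0.06. *Psme1* and *Psme2* encode PA28α and PA28β, which interferon induces together. *Psme1* was at 7.84 and 7.78 log2 CPM in *Id2*+/+ and at 8.12 and 7.80 in *Id2*Δ/Δ, a log2 fold change of 0.15 that was -0.02 without *Id2*Δ/Δ replicate 1. *Psme2* was at 6.60 and 6.68 and then at 6.75 and 6.51, a log2 fold change of -0.01.

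*Psme2b* is a copy of *Psme2* that is 99.4% identical to it over 794 aligned bases, so reads could be split between the 2 genes and its value is uncertain. It also lies within *Gm12185* on the same strand. It had 93 and 118 reads in *Id2*+/+ and 190 and 134 in *Id2*Δ/Δ, and its log2 fold change of 0.39 had a standard error of 0.32 and was 0.11 without *Id2*Δ/Δ replicate 1.

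*Psme3*, the nuclear activator PA28γ, was at 7.25 and 7.44 log2 CPM in *Id2*+/+ and at 7.32 and 7.63 in *Id2*Δ/Δ. Unlike most of the 49 genes it was highest in *Id2*Δ/Δ replicate 2, and its log2 fold change of 0.13 was -0.03 without that library. *Psme4*, the activator PA200, was at 6.62 and 6.67 in *Id2*+/+ and at 6.62 and 6.38 in *Id2*Δ/Δ, both lower, although replicate 1 and the nearer *Id2*+/+ library are equal when rounded. Its log2 fold change of -0.15 (standard error 0.14) was -0.02 without *Id2*Δ/Δ replicate 2, and its transcript is the longest of the 49, at 6491 bases. After correction for length it was -0.05. *Psmf1*, the inhibitor PI31, was at 6.26 and 6.08 and then at 6.33 and 5.98, a log2 fold change of -0.01. *Psmc3ip*, which is no subunit, was at 4.67 and 4.52 in *Id2*+/+ and at 4.99 and 4.64 in *Id2*Δ/Δ, a log2 fold change of 0.22 (standard error 0.21).

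Levels were compared between genes as CPM per kilobase of the longest coding transcript. Over the 4 libraries, *Psme1* was highest at 213 CPM per kilobase, followed by *Psmb6* at 209, *Psmb8* at 200, *Psmb2* at 175 and *Psma7* at 164. The lowest were *Psma8* at 8.62, *Psme2b* at 9.41, *Psmd9* at 10.6, *Psme4* at 14.6 and *Psmf1* at 18.8. The medians were 109 for the core, 60.6 for the regulatory particle, 83.7 for the immunoproteasome genes and 32.1 for the assembly chaperones, against 9.73 for all tested genes. The constitutive β subunits differed in RNA level, from 31.4 for *Psmb7* to 209 for *Psmb6*. *Psmb7* overlaps *Nek6* over 6571 bases on the other strand, so its value is uncertain by the reads that may be shared.

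**Figure D4:**
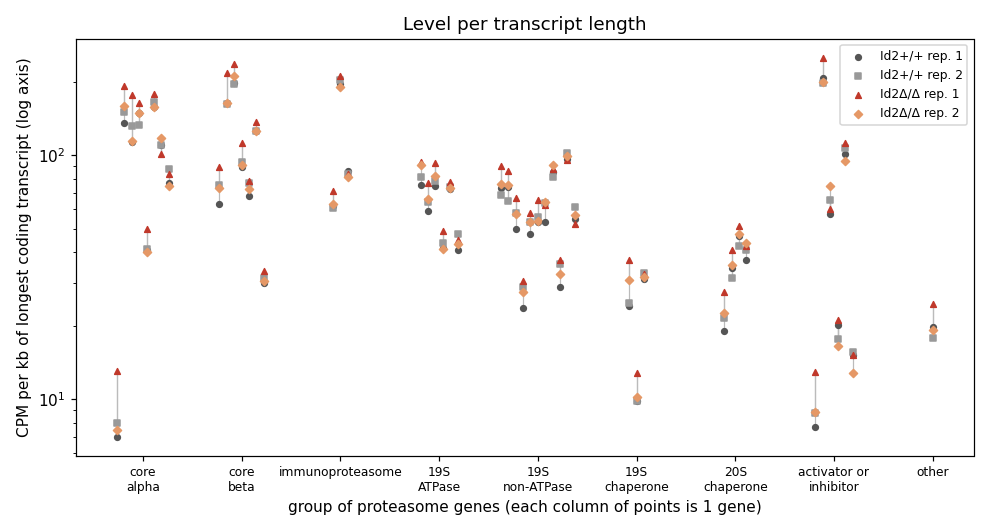
CPM per kilobase of the longest coding transcript (log axis) for each proteasome gene, 1 column of 4 points per gene and 1 point per library, by group. Differences between genes, from 8.62 for Psma8 to 213 for Psme1, are far larger than those between libraries of 1 gene.

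Transcript length moved with the libraries and with these genes. The proteasome transcripts were short, with a median of 1440 bases against 2735 for all tested genes. Tested genes under 1500 bases were, as a class, higher in *Id2*Δ/Δ replicate 1, by a median of 0.10 log2 over their mean. Their median deviation was 0.03 in *Id2*Δ/Δ replicate 2 and -0.05 in both *Id2*+/+ libraries. These genes had a median log2 fold change of 0.11 and 43.9% of them were highest in *Id2*Δ/Δ replicate 1. For genes of at least 2500 bases the values were -0.04 and 27.7%. Of the 25 proteasome genes under 1500 bases, 22 were highest in *Id2*Δ/Δ replicate 1 and the median log2 fold change was 0.18.

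The 14 proteasome genes of 1500 to 2500 bases had a median log2 fold change of 0.12, with 11 highest in *Id2*Δ/Δ replicate 1 (78.6%). All tested genes of that length had a median of 0.04, with 35.8% highest there. The 10 proteasome genes of at least 2500 bases had a median of 0.05, with 4 highest in that library. Across the 49 genes, the deviation in *Id2*Δ/Δ replicate 1 had a Pearson's r of -0.31 and a Spearman's rho of -0.31 with log2 length, given as a description because the genes share their libraries. In *Id2*+/+ replicate 2 they were 0.41 and 0.37, in *Id2*+/+ replicate 1 0.20 and 0.08, and in *Id2*Δ/Δ replicate 2 -0.13 and -0.07. After a correction of every library for length across all genes, 36 of the 49 proteasome genes had a higher mean in *Id2*Δ/Δ (73.5%, against 55.7% of all tested genes), with a median of 0.11 against 0.03. Under that correction 9 of 15 core genes, 14 of 17 regulatory genes, 1 of 3 immunoproteasome genes and 7 of 7 chaperones were higher.

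**Figure D5:**
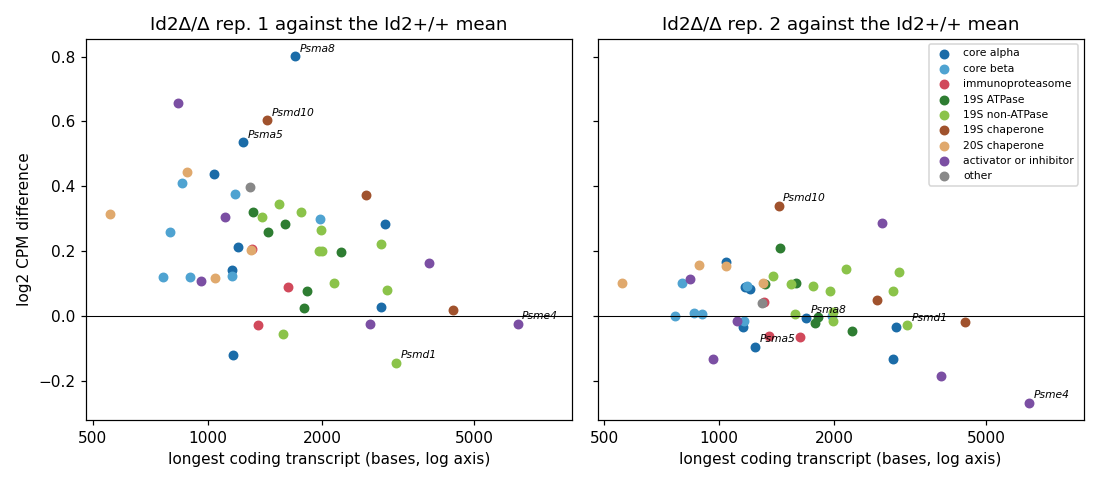
Log2 CPM of each proteasome gene in Id2Δ/Δ replicate 1 (left) and replicate 2 (right) minus the mean of the Id2+/+ libraries, against the length of its longest coding transcript (log axis), colored by group. In replicate 1 most short genes lie above 0, and those of at least 2500 bases range from -0.14 for Psmd1 to 0.37 for Psmd9. Points of replicate 2 lie around 0.

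Markers of other cells were low beside HSC markers but differed between genotypes for some lists. The 4 megakaryocyte markers summed to 313 to 330 CPM in *Id2*+/+ and 379 to 396 CPM in *Id2*Δ/Δ, all 4 above 1 CPM. The 5 macrophage and dendritic cell markers summed to 291 to 311 CPM and 226 to 229 CPM, with 3 above 1 CPM and no row for *Adgre1* and *Itgax*. Neutrophil markers, all 8 above 1 CPM, summed to 170 to 276 CPM and 140 to 258 CPM. *Flt3* and *Cd48*, which the gate selects against, were summed with *Cd34*, which the gate does not use. These 3 genes came to 371 to 429 CPM and 367 to 406 CPM, and the sum does not show each gene's share. Erythroid markers, 5 of 7 above 1 CPM, summed to 42.4 to 53.3 CPM and 42.0 to 65.3 CPM. B-cell markers, 1 of 4 above 1 CPM, summed to 33.6 to 37.9 CPM and 34.5 to 51.0 CPM, without rows for *Cd79a* and *Ms4a1*, and T- and NK-cell markers to 1.38 to 3.40 CPM and 2.27 to 2.54 CPM. The part of the HSC, megakaryocyte and macrophage lists in the proteasome values was not tested.

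The genes that act with the proteasome, 51 in 6 lists, had a median close to that of all tested genes. All 51 were tested, 29 had a higher and 22 a lower mean in *Id2*Δ/Δ, the median log2 fold change was 0.02, and limma called 0 of them, with 1 at an unadjusted p under 0.05. Proteasome-associated genes outside the name rule, such as the assembly factor *Pomp*, were higher in 6 of 9 (median 0.05), with *Txnl1* at 0.20 and *Pomp* at 0.17. The genes of ubiquitin itself and of its E1 enzymes were higher in 4 of 6, with *Rps27a* at 0.18, and those that deliver substrates, such as *Vcp*, in 5 of 10, with *Ufd1l* at -0.21. Antigen processing genes beside the immunoproteasome were higher in 4 of 8, with *Pdia3* at 0.11.

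The prolyl hydroxylases prepare HIF-1α for the VHL ligase. Of the genes of this ligase, those of the hydroxylases and *Hif1a* itself, 6 of 9 were higher (median 0.12). *Rbx1*, the RING subunit that recruits the E2 enzyme, was at 6.83 and 6.85 log2 CPM in *Id2*+/+ and at 7.35 and 7.05 in *Id2*Δ/Δ. Both *Id2*Δ/Δ libraries were higher, and the log2 fold change of 0.36 had a standard error of 0.14 and an unadjusted limma p of 0.0351. It was 0.21 without *Id2*Δ/Δ replicate 1. *Hif1a*, whose product is the substrate, was at 6.70 and 6.86 and then at 6.81 and 6.61, with overlap (log2 fold change -0.07), and *Vhl* had a log2 fold change of -0.15.

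Genes that control proteasome transcription did not lean upward, with 4 of 10 higher and a median log2 fold change of -0.06. *Nfe2l1* encodes NRF1, the factor that raises proteasome genes when proteolysis is impaired, and it was at 6.78 and 6.79 log2 CPM in *Id2*+/+ and at 6.58 and 6.42 in *Id2*Δ/Δ. Both *Id2*Δ/Δ libraries were lower than both of *Id2*+/+. The difference was -0.29 log2, with a standard error of 0.13 and an unadjusted limma p of 0.063. *Ddi2*, the protease that cuts NRF1 into its active form, and the interferon-response factor *Irf1* were also lower in both *Id2*Δ/Δ libraries, with log2 fold changes of -0.08 and -0.21. *Nfe2l2*, which encodes the related NRF2, was at 6.64 and 6.65 and then at 6.81 and 6.71, a log2 fold change of 0.11.

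NRF1 and NRF2 bind the antioxidant response element, and NF-Y, of which *Nfyb* encodes a subunit (log2 fold change 0.11), binds the CCAAT box. RefSeq promoters on GRCm38.p6, from 250 bases before to 50 bases after the start, were matched for 41 of the 49 genes in 44 windows. In 37 of the 44, the bases after the start lie in a transcript of the gene on its strand. On either strand, 6 windows (13.6%) hold TGACNNNGC, the core of the antioxidant response element, against 12.4% of all 32851 promoters, and 14 (31.8%) hold CCAAT, against 37.4%. A core of the interferon-stimulated response element, GAAANNGAA, is in 7 windows (15.9%), against 8.56%. These belong to *Psmb3*, *Psmb4*, *Psmc2*, *Psmd4*, *Psmd9*, *Psme1* and *Psmg4*, and to no immunoproteasome gene. Only *Psmb3*, *Psmd4* and *Psmd9* have such a match that ends before the start. The difference from all promoters was not tested. These are matches of letters and say nothing of binding.

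The windows below are shown because they hold such a match in genes described above, the constitutive catalytic genes *Psmb5* and *Psmb6* and the chaperones *Psmd9* and *Psmd10*, with the match in capitals and up to 20 bases on each side. They lie at chr14:54618014-54618062 on the minus strand, chr11:70525328-70525356 on the plus strand, chr5:123228139-123228187 on the plus strand and chrX:140956712-140956755 on the minus strand. The matches begin 47, 9, 31 and 24 bases before the start. The first 3 are antioxidant response element cores and the last is a CCAAT box read on the opposite strand.
Psmb5: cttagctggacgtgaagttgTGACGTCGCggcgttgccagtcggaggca
Psmb6: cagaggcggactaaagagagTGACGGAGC
Psmd9: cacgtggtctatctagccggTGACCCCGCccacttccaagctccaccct
Psmd10: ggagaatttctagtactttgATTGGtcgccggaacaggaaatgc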

How the data were processed

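The authors deposited log2 CPM values of 19354 genes in 4 columns, 1 per library. The unit was read from the values: the columns sum to 999980 to 999996 CPM, and once sorted they agree within 0.1 in 88.4% of ranks, as after quantile normalization. The submitters' notes name CASAVA 1.8.4, Trimmomatic 0.30, TopHat2 2.0.8, RSEM and STAR and the builds mm9 and NCBIM37, without their order, while 99.7% of the gene identifiers are in GENCODE M21 on GRCm38 (82.0% in the same version), from which coordinates and lengths were taken. How reads shared by similar or overlapping genes were counted and whether strand was used are not given in the sources used here, and 20 of the 49 genes overlap another listed gene. No pseudocount was added. The 15895 genes that averaged 1 CPM or more were compared by limma 3.58.1 (R 4.3.3, lmFit and eBayes with trend, no covariate, two-sided p-values with Benjamini-Hochberg adjustment, called under 0.05), after a test on simulated data. Below 32 CPM the rank of a value among the distinct values of its library gave its reads, and from these the depth. Reads above that are not recovered, so no count model was run. Counting error (SD) exceeded 0.1 log2 for 2 of the 49 genes.

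Length is that of the longest protein-coding transcript. Named were the catalytic pairs, every activator and the inhibitor, the genes with the highest and lowest CPM of each other group, genes at an unadjusted p under 0.05, the 5 largest and 5 smallest log2 fold changes, and of each associated list the genes at an unadjusted p under 0.05 or else that with the smallest p, plus *Hif1a*, *Nfe2l1* and *Nfe2l2*. Others, such as *Psma5*, *Psmc4*, *Psmd14*, *Pomp*, *Vhl*, *Irf1*, *Ddi2* and *Nfyb*, were named after their values were seen. The genes, lists and tests were chosen with earlier results of these data known. Alternatives varied pseudocount, scaling, filter, trend, threshold, replicate number, libraries and length correction.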

Additional observations from a re-analysis of the deposited data

How the results depend on the processing

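Limma called 0 proteasome genes under each of the 14 alternatives, and 0 of all tested genes under each but the replicate block, which called 1. The replicate number is not said to mark a shared experiment. Between the genotypes, the differences between replicates had a Pearson's r of 0.06 across all tested genes and -0.000765 across the proteasome genes. With 1 such difference a genotype, these values cannot show whether the numbers pair the samples. With the block the medians and fold changes of the proteasome genes are the same by construction, and 1 of the 49 and 925 of all tested genes had an unadjusted p under 0.05, against 1 and 742 without it. With each library left out in turn, group medians ranged from 0.0387 to 0.208 (all 49), -0.000151 to 0.26 (core), 0.0589 to 0.201 (regulatory particle), -0.0619 to 0.0886 (immunoproteasome), -0.0752 to 0.136 (activators and inhibitor) and 0.103 to 0.316 (chaperones).

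Of 36 named genes, 19 kept their sign under all alternatives and 11 lost it only with a library left out. The log2 fold changes then ranged from -0.148 to 0.0433 (*Psma3*), -0.00534 to 0.801 (*Psma8*), -0.000729 to 0.299 (*Psmb1*), -0.0223 to 0.147 (*Psmb5*), -0.0147 to 0.125 (*Psmb7*), -0.0663 to 0.0886 (*Psmb8*), -0.102 to 0.104 (*Psmc2*), -0.00326 to 0.0772 (*Psmc3*), -0.0488 to 0.262 (*Psmd13*), -0.0432 to 0.0442 (*Psmd5*), -0.0653 to 0.0134 (*Psmd7*), -0.0165 to 0.307 (*Psme1*), -0.134 to 0.109 (*Psme2*), -0.0254 to 0.287 (*Psme3*), -0.184 to 0.163 (*Psmf1*), -0.17 to 0.0274 (*Hif1a*) and -0.0508 to 0.401 (*Rps27a*). Length correction, with or without the replicate block, reversed *Psmb5* (-0.0133), *Psmb7* (-0.00036), *Psmb8* (-0.00769), *Psmc2* (-0.00693) and *Psmf1* (0.0331), and median-ratio scaling *Psmb8* (-0.00333), *Psmc2* (-0.0131) and *Psmd5* (-0.014). The cause was not tested.

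Precision is limited by the spread between 2 libraries of pooled animals a genotype. For *Psma8* and *Psme2b*, counting error (SD 0.11 and 0.15 log2) was below the standard errors of 0.31 and 0.32.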
